A study of Homo sapiens with 18 samples.

Results

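The comparison is the first interval of a transcription block in cells that had received no etoposide, from time point 0 (group DMSO_T0) to time point 20 (group DMSO_T20). It was chosen by the sample titles and takes 6 of the 18 libraries of the series, 3 in each group. The study followed RNA levels in hTERT RPE-1, a human retinal pigment epithelial line immortalised with telomerase, to compare RNA stability with and without etoposide. All groups, the controls included, were starved for 48 h in 0.1% serum after growth in 10% serum, and the labels place them in G0/G1. The DMSO groups received no etoposide, and the groups ETOP_T0, ETOP_T20 and ETOP_T40 received 50 µM etoposide, which traps topoisomerase II on cut DNA, for 30 min. Triptolide at 10 µM was then used to stop transcription, and RNA was collected at the time points 0, 20 and 40. The labels give neither the unit of time nor whether triptolide was present at 0, so that the numbers serve here as names. DMSO_T40, the next group of the same arm, and the etoposide groups were used for the comparisons with other intervals, and the cells are a single line in every group.

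Triptolide binds the XPB helicase of the general transcription factor TFIIH, encoded by ERCC3, and blocks initiation by RNA polymerase II. Once synthesis stops, each RNA disappears at the pace of its own decay. The first RNAs to be lost are usually those of immediate early genes, cytokines and feedback inhibitors of signalling, many of which carry AU-rich elements in the 3' untranslated region (UTR) that recruit decay factors such as the ZFP36 proteins. Messages for ribosomal proteins and metabolic enzymes last far longer. Sequencing reads give each RNA relative to the library total, so a loss that all RNAs share does not show, and fewer cells and less RNA per cell cannot be told apart.

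The 6 libraries held 8758232 to 11343898 counts, and levels are given as CPM, counts scaled to 1000000 per library. A gene was taken as detectable from 3 counts, or 0.264 to 0.343 CPM. The second library of DMSO_T0 stood apart before any test. Genes typed as antisense held 1.42% of its counts (exact Clopper-Pearson 95% interval 1.413% to 1.429%, counting error only), while the other 5 held 0.217% to 0.247%. BEST1, which encodes the bestrophin channel of the pigment epithelium, had 2450 CPM there and at most 18.4 CPM in the other 5. BEST1 overlaps FTH1, which averaged 6736 CPM in the 6 libraries, on the opposite strand. With the strand setting of the counting not given, it is not known whether reads of the pair were told apart. The 2450 CPM are uncertain as a BEST1 level. Results that rest on that library are therefore also given without it. Of 16 markers of retinal pigment epithelium, the keratin genes KRT8 and KRT18 were at 502 to 1070 CPM. MITF was at 23.4 to 68.5 CPM, OTX2 at 22.9 to 36 CPM and MERTK at 5.42 to 10.8 CPM. SERPINF1 was at 3.47 to 14.5 CPM and PMEL at 0.793 to 6.05 CPM. Another 8 averaged under 1 CPM, RPE65, LRAT and TYR among them, with CDH1 and TTR at 0. The 16 markers summed to 1390 to 3640 CPM at time point 0, the top value being that of the library with the BEST1 counts, and to 1240 to 2160 CPM at 20. Outside that library KRT8 and KRT18, which mark simple epithelia in general, made up most of each sum. The sums alone therefore do not mark pigment epithelium. Of 10 fibroblast markers, THY1 was at 477 to 547 CPM, FAP at 154 to 212 CPM and PDGFRB at 96.1 to 130 CPM. COL1A1 was at 15.4 to 61.5 CPM and PDGFRA at 17.5 to 30.1 CPM. DCN was at 0.871 to 4.74 CPM and POSTN at 0.581 to 3.85 CPM, and COL1A2, COL3A1 and LUM averaged under 1 CPM. The 10 markers summed to 790 to 952 CPM at time point 0 and 818 to 941 CPM at 20. The 10 markers of other epithelia and the 10 of blood cells each summed to at most 2.12 CPM in any of the 6 libraries.

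No single RNA passed the test in the first interval. Of 14186 genes tested with edgeR, with the replicate number as pairing block, 0 were called at an adjusted p below 0.05 (percent called 0), and the smallest adjusted p was 0.99977. At an unadjusted p below 0.05 there were 392 genes (2.76%), of which 287 were lower at 20 (2.02%) and 105 were higher (0.74%). DESeq2 called 7 genes, all of them lower and all highest in the second DMSO_T0 library, and limma-voom called 0. Leaving out 1 library of the comparison at a time gave 5 calls without the first DMSO_T0 library, 1 without the second, 3 without the third and 0 without each DMSO_T20 library. The 5 were PITX1-AS1, AL671883.2, AC067930.6, U47924.2 and MIF-AS1, the 3 were PRADX, CXCR5 and AC022966.1, and the 1 was EIF3CL, all named after their calls were seen. The median standard error (SE) of the log2 change was 0.13 among the 10860 genes with a mean of 5 CPM or more in the 6 libraries. In the next interval of the same arm, which shares the DMSO_T20 libraries, 110 genes fell (0.775%, 31 genes without the replicate block) and 0 rose. From 0 to 40, a comparison that shares libraries with both intervals, 171 fell (1.21%) and 2 rose (0.0141%), against 60 and 0 without the replicate block and 644 and 18 with no filter on low counts. In what follows, values of the first interval are therefore descriptions, each with its SE.

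The 20 genes with the smallest p, among those at a mean of 5 CPM or more that moved the same way in all 3 replicate numbers, were all lower at time point 20. With all libraries, the first gene that was higher came in place 32 of this order. That place rests on the second DMSO_T0 library. In the ranking without it, given below, LRRC75B, higher at 20, came directly after DDIT4 and ahead of ADM. The values chose these 20, so their direction is a description, and over all tested genes 12.5% were lower in all 3 numbers and 11.4% were higher. In 13 of the 20, the highest library of DMSO_T20 lay under the lowest of DMSO_T0, as it did in 1.64% of all tested genes. The reverse held in 1.66% of all tested genes. The 20 were picked from these same libraries, which favours such gaps, so this count is a description too. AC125611.3 and AC009120.2, both among the 13, reach a mean of 5 CPM only with the second DMSO_T0 library counted. The 20 are described below by what they encode.

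Feedback inhibitors of signalling were 3 of the 20. SOCS3, which blocks cytokine signalling through JAK kinases and has the smallest p of the 20, measured 27.9, 26.4 and 18.8 CPM at time point 0 in replicates 1 to 3 and 16.2, 12.5 and 14.9 CPM at 20. All libraries of time point 20 lay under all of time point 0, and replicate 3 had the lowest starting value and the smallest drop. The log2 change was −0.74 (SE 0.16), and the mean level at 20 was 59.7% of that at 0. TRIB1, a pseudokinase that hands the transcription factor CEBPA to ubiquitin ligases, measured 44.2, 47.6 and 22.2 CPM at 0 and 27.9, 27.1 and 17.9 CPM at 20. It was lower within each replicate number, but the third library of time point 0 lay inside the range of time point 20 (log2 change −0.62, SE 0.19). ARRDC3, an arrestin-like adaptor that takes receptors into degradation, measured 74.8, 64.1 and 63.1 CPM at 0 and 52.1, 43.1 and 54.4 CPM at 20, with no overlap (log2 change −0.44, SE 0.14). Of 32 tested members of the list of feedback inhibitors, 25 had a negative log2 change, 6 were lower at an unadjusted p below 0.05 and none was called. Their median was −0.11, beside −0.00014 over all tested genes, of which 50% were negative. Between 20 and 40 the same list had a median of −0.40, and 13 members fell. Over all tested genes, 2.02% were lower at an unadjusted p below 0.05 in the first interval, and 0.775% fell in the second. These shares are the background for the list counts below as well.

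Among transcription factors of the immediate early response, IER2 had the smallest p. It measured 115, 153 and 73.8 CPM at 0 and 80.4, 88.2 and 68.2 CPM at 20, a log2 change of −0.49 (SE 0.13). Replicate 3 changed least, and its value at time point 0 lay under the other values of time point 20, so that the groups overlapped. Without the second DMSO_T0 library the change of IER2 was −0.32 (SE 0.13). JUN, a subunit of the AP-1 factor, measured 237, 282 and 138 CPM at 0 and 153, 230 and 116 CPM at 20 (log2 change −0.39, SE 0.13). Its partner FOS measured 41.1, 27.7 and 6.29 CPM at 0 and 12.3, 18.3 and 10.4 CPM at 20, lower in replicates 1 and 2 and higher in replicate 3. The log2 change of FOS was −0.62 with an SE of 0.35, and it was 0.06 without replicate 1. MYC, a growth-promoting factor, measured 50.5, 62.4 and 66.9 CPM at 0 and 43.0, 40.2 and 60.6 CPM at 20 (log2 change −0.34, SE 0.13). Without the second DMSO_T0 library the change of MYC was −0.17 (SE 0.13). Of 31 tested members of this list, 19 were negative and 5 were lower at an unadjusted p below 0.05, with a median of −0.04. The list had a median of −0.60 from 20 to 40, where 13 members fell and all 31 were negative.

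Genes of stress signalling and of BMP and NF-kB signalling included 3 more RNAs with low p. DDIT4, an inhibitor of mTORC1 induced by stress, measured 36.8, 48.0 and 12.7 CPM at 0 and 23.7, 30.3 and 6.57 CPM at 20. Its replicates began at very different levels, so the groups overlapped, while within the numbers the log2 change was −0.63, −0.66 and −0.93 (fit −0.72, SE 0.16). ID1, a BMP-induced antagonist of helix-loop-helix factors, measured 22.4, 23.2 and 26.0 CPM at 0 and 13.7, 14.7 and 20.4 CPM at 20, without overlap (log2 change −0.57, SE 0.15). NFKBIA, the inhibitor that holds NF-kB in the cytoplasm, measured 62.2, 70.0 and 30.1 CPM at 0 and 43.3, 47.0 and 27.1 CPM at 20 (log2 change −0.42, SE 0.15). The third replicate of NFKBIA was the lowest at both time points and the groups overlapped. The lists of these genes are given by their medians. The 19 stress genes had a median of −0.01 and the 22 NF-kB genes one of −0.07, with 10 and 13 negative. The 20 genes of BMP, TGF-beta and Notch signalling had a median of −0.06, with 13 negative.

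The RNAs of the ZFP36 family of decay factors, of TENT5A and of LSM6 were among the lower ones. ZFP36L1, a protein that binds AU-rich elements and recruits the deadenylase, measured 295, 245 and 213 CPM at 0 and 199, 162 and 177 CPM at 20, a log2 change of −0.48 (SE 0.11). Its libraries did not overlap. Its relatives ZFP36 and ZFP36L2 had log2 changes of −0.73 (SE 0.27) and −0.31 (SE 0.12). Of the 15 genes on the list of proteins that bind AU-rich elements these were the 3 at an unadjusted p below 0.05, and 11 of 15 were negative with a median of −0.09. That median was 0.07 within replicate 1, and it was −0.000434 to −0.205 on leaving out libraries. TENT5A, a noncanonical poly(A) polymerase, measured 28.3, 23.7 and 27.4 CPM at 0 and 21.4, 14.7 and 18.7 CPM at 20, again without overlap (log2 change −0.54, SE 0.13). LSM6, a subunit of the ring that binds oligoadenylated 3' ends and also of the U6 snRNP, measured 14.3, 19.3 and 14.3 CPM at 0 and 9.44, 13.2 and 11.4 CPM at 20 (log2 change −0.49, SE 0.15). From 20 to 40 its log2 difference was 0.08 (adjusted p = 0.945). The 28 genes of deadenylation, decapping and exonuclease decay had a median of −0.02 and none at an unadjusted p below 0.05.

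Secreted factors and regulators of growth followed. ADM, which encodes the vasodilator peptide adrenomedullin, measured 148, 142 and 117 CPM at 0 and 89.8, 92.0 and 101 CPM at 20, a log2 change of −0.52 (SE 0.13). The groups did not overlap, and replicate 3 changed least. The chemokine gene CXCL2 went from 2.70, 2.29 and 0.213 CPM to 0.825, 0.0899 and 0.0967 CPM, and the third library of time point 0 and 2 of the 3 libraries of time point 20 were under the floor of 3 counts. Its log2 change of −2.27 (SE 0.73) rests on few counts. HBEGF, a ligand of the EGF receptor, was higher by value, at 24.0, 18.6 and 9.70 CPM against 25, 25.5 and 12.2 CPM (log2 change 0.27, SE 0.14, and 0.17, SE 0.16, without the second DMSO_T0 library). The list of cytokines and growth factors with AU-rich messages had 16 negative members of 25 and a median of −0.12, which was 0.06 without replicate 1 in every group. PHLDA1, a pleckstrin-homology protein linked to apoptosis, measured 442, 522 and 337 CPM at 0 and 317, 390 and 286 CPM at 20 (log2 change −0.38, SE 0.1). The cell cycle inhibitor CDKN1B and the transcription factor SOX9 had log2 changes of −0.38 (SE 0.13) and −0.27 (SE 0.09). Without the second DMSO_T0 library CDKN1B was at −0.25 (SE 0.14). Of the 30 short-lived regulators of survival and the cell cycle 25 were negative, with a median of −0.11, 6 lower and 1 higher at an unadjusted p below 0.05. The 31 p53 targets had a median of −0.08 with 23 negative, and CDKN1A, the cell cycle inhibitor p21, was at −0.12 (SE 0.1).

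**Figure D1:**
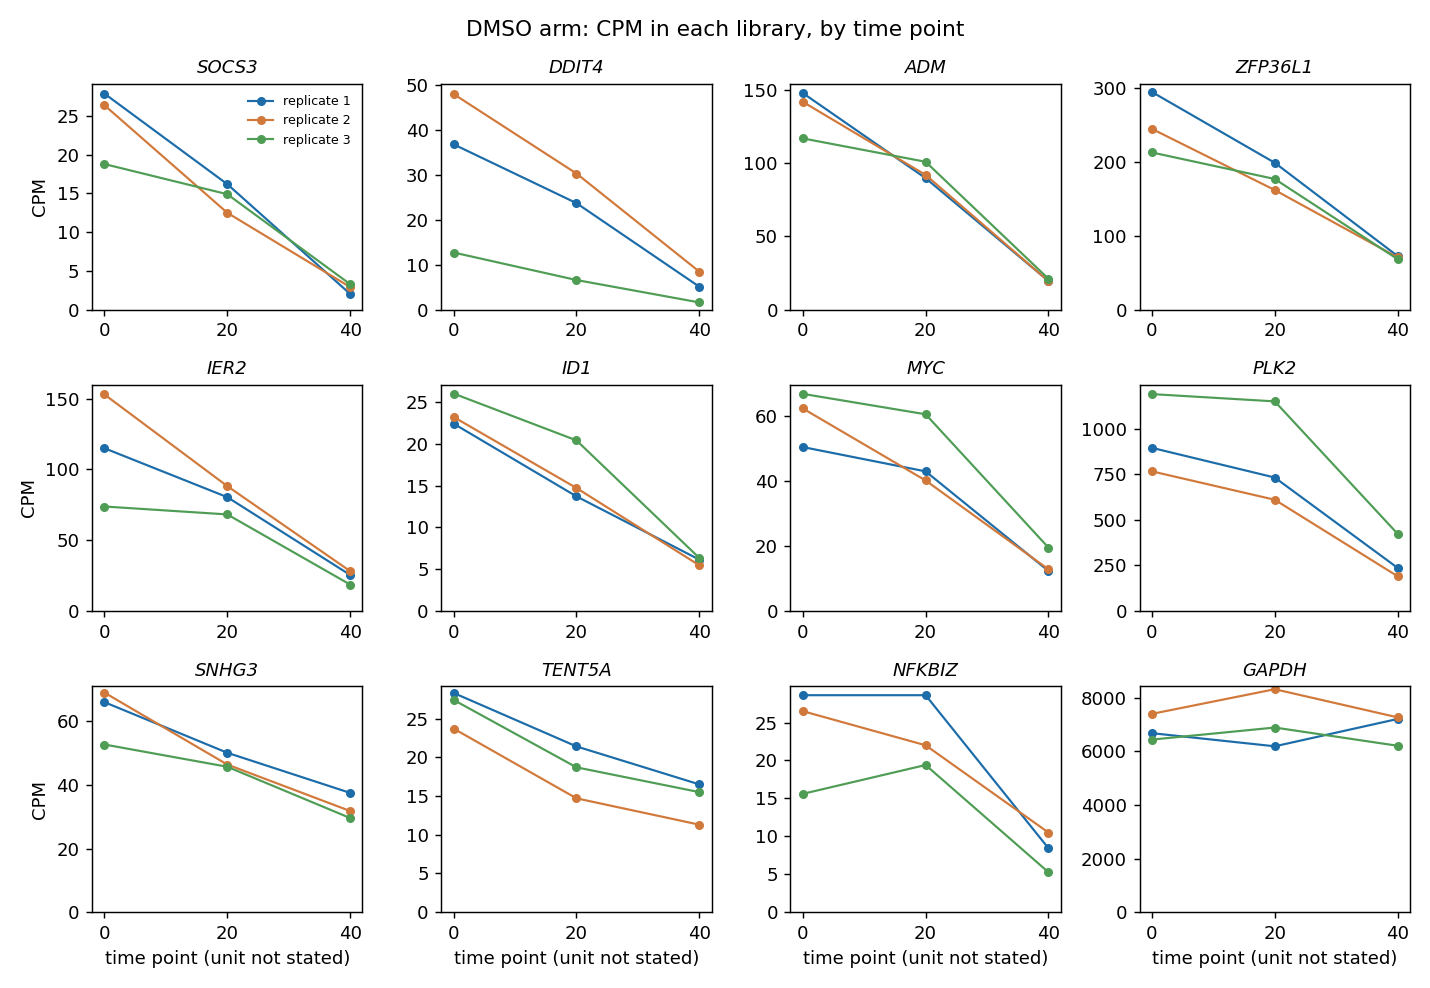
CPM (vertical axis, starting at 0) at time points 0, 20 and 40 of the DMSO arm for 12 named genes, with 1 line per replicate number. SOCS3, ADM, ZFP36L1, ID1, SNHG3 and TENT5A have all libraries of time point 20 under all of time point 0, whereas PLK2 and NFKBIZ keep 87.3% and 99.1% of the mean level of time point 0 at 20 and 29.8% and 34.2% at 40, and GAPDH shows no common direction.

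Small RNA hosts and noncoding RNAs gave further members of the 20. SNHG3, the host transcript of the small nucleolar RNAs SNORA73A and SNORA73B, measured 66.0, 69.0 and 52.7 CPM at 0 and 50.1, 46.4 and 45.7 CPM at 20 (log2 change −0.40, SE 0.1). The libraries did not overlap. SNHG3 shares its locus and strand with RCC1, and reads of the shared part cannot be assigned with certainty. AC048341.2, annotated as a long intergenic RNA on chromosome 12 at 62603909 to 62604399 overlapping the let-7i host MIRLET7IHG, was nearly level across replicates at 7.78, 7.89 and 8.21 CPM and measured 4.95, 3.78 and 3.29 CPM at 20. Its log2 change of −0.98 (SE 0.27) corresponds to 50.3% of the mean level of time point 0. MIR23AHG, which carries the miR-23a cluster, measured 28.2, 29.2 and 9.70 CPM at 0 and 16.5, 15.8 and 12.6 CPM at 20, lower in replicates 1 and 2 and higher in replicate 3 (log2 change −0.51, SE 0.24). Of the 25 small nucleolar RNA hosts tested, 17 were negative, with a median of −0.05 and 2 at an unadjusted p below 0.05, SNHG3 and SNHG1 (−0.29, SE 0.12). The 14 microRNA hosts had a median of −0.10 with 8 negative.

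The other coding genes of the 20 belong to no list. VMP1, a membrane protein of autophagosome formation whose locus also holds MIR21, measured 288, 252 and 237 CPM at 0 and 232, 169 and 200 CPM at 20 (log2 change −0.38, SE 0.11). PPP1R3C, which directs protein phosphatase 1 to glycogen, measured 69.5, 63.1 and 71.5 CPM at 0 and 58.8, 38.8 and 50.9 CPM at 20 (log2 change −0.47, SE 0.14). Neither gene's groups overlapped. GCC1, a Golgi coiled-coil protein, had a log2 change of −0.42 (SE 0.12) with overlapping groups. Counts given to EIF4A1, a helicase of translation initiation, measured 14.5, 16.2 and 8.53 CPM at 0 and 8.71, 6.47 and 7.83 CPM at 20 (log2 change −0.76, SE 0.22). EIF4A1 shares its strand with the read-through gene SENP3-EIF4A1 and holds 3 small nucleolar RNA genes, so that these counts are reads given to EIF4A1 alone and are uncertain as its level. Without the second DMSO_T0 library its change was −0.49 (SE 0.23). Among the 20, DDIT4, TENT5A, IER2, PHLDA1, ARRDC3, VMP1, GCC1, AC125611.3, AC009120.2 and AC010642.2 overlap genes on the opposite strand. With the strand setting of the counting not given, it is not known whether reads of such pairs were told apart. The share of counts in antisense genes was 1.42% in the second DMSO_T0 library and 0.217% to 0.247% in the other 5. The cause was not tested.

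Abundant messages for ribosomal proteins and housekeeping enzymes had medians close to 0. Among 53 cytosolic ribosomal protein genes 8 were negative, the median was 0.03, and none reached an unadjusted p below 0.05. Of 29 housekeeping genes 5 were negative with a median of 0.03. Neither median held one sign within the replicates, which gave −0.15, 0.17 and 0.06 for the ribosomal protein genes and −0.12, 0.13 and 0.04 for the housekeeping genes. GAPDH, a glycolytic enzyme, measured 6680, 7400 and 6440 CPM at 0 and 6190, 8320 and 6890 CPM at 20, so that replicate 1 was lower and the other 2 were higher (log2 change 0.06, SE 0.09). ERCC3, the gene of the protein that triptolide binds, measured 72.6, 81.4 and 58.1 CPM at 0 and 80.1, 91.2 and 60.4 CPM at 20 (log2 change 0.12, SE 0.09). Scaling to the ribosomal protein and housekeeping genes in place of edgeR's factors moved the median of all genes to −0.03, and still called 0 genes.

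**Figure D2:**
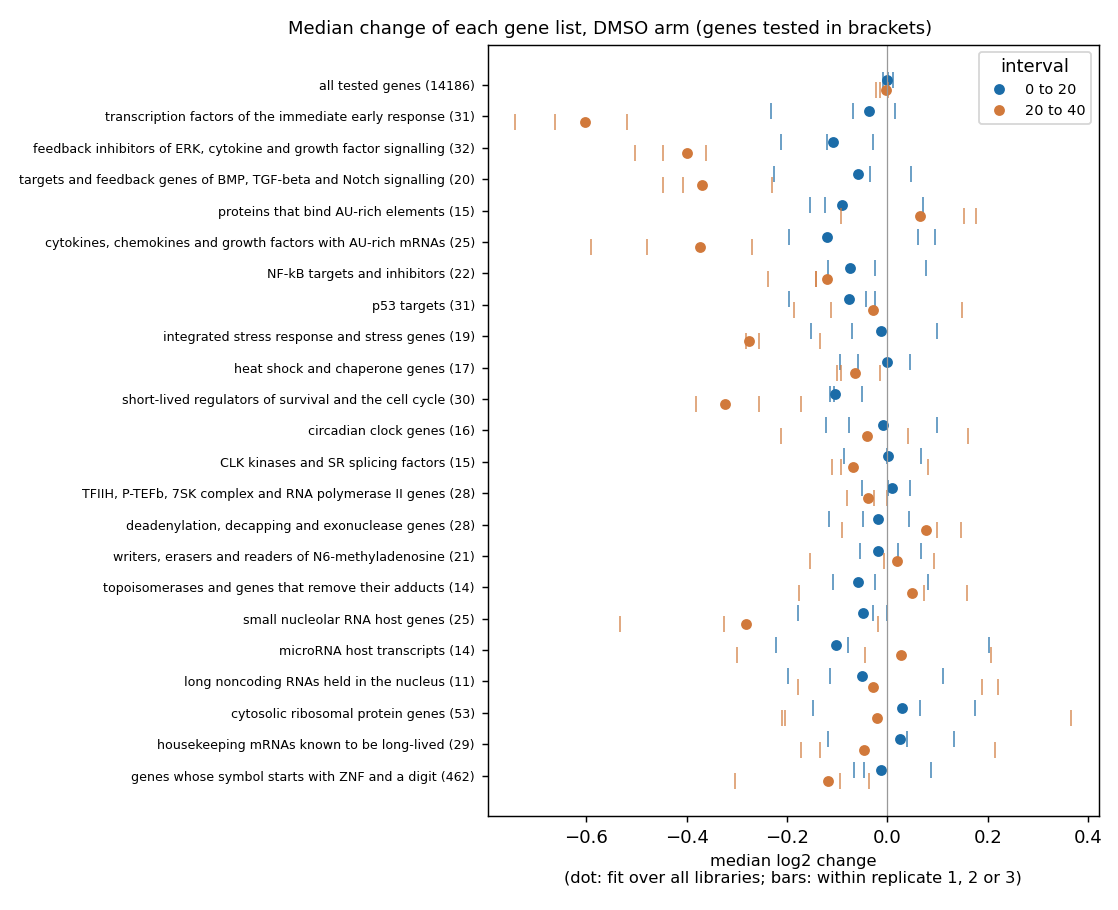
Median log2 change of each gene list in the DMSO arm from 0 to 20 (blue) and from 20 to 40 (orange), with dots for the fit and short bars for the medians within replicates 1, 2 and 3. The feedback inhibitors have a median of −0.11 in the first interval and −0.40 in the second, the immediate early factors −0.04 and −0.60, and the bars of several lists lie on both sides of 0 in the first interval.

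Without the second DMSO_T0 library 17 of the 20 genes kept an unadjusted p below 0.05, and all 20 kept a negative sign. Over the 14439 genes tested in that fit, 296 (2.05%) had an unadjusted p below 0.05. Since the 20 were picked by p and as lower in all 3 numbers, with the remaining libraries included, neither count is a sign of stability. The other 3 were TRIB1, at −0.41 (SE 0.2), AC009120.2, at −0.39 (SE 0.28), and AC010642.2, at −0.33 (SE 0.22). AC009120.2, a processed transcript, had 27.3 CPM in that library and 3.06 to 4.27 CPM in the other 5. AC010642.2, an antisense gene, had 20.5 CPM there and 5.12 to 10.5 CPM elsewhere. AC125611.3, antisense to the tubulin gene TUBA1C on chromosome 12 at 49265156 to 49273306, had 193 CPM there and at most 1.45 CPM elsewhere, and its log2 change went from −6.99 (SE 1.61) with that library to −2.06 (SE 0.84) without it. Its direction therefore rests on counts near the floor. BEST1 went from −5.44 (SE 1.75) to −1.19 (SE 0.62).

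The genes were also ranked again without that library, with the same direction asked of replicates 1 and 3 only and the mean of 5 CPM still taken over all 6 libraries. This left 8 of the 20 in place: ZFP36L1, TENT5A, SOCS3, DDIT4, ADM, ID1, AC048341.2 and PHLDA1. The first place went to DUSP1, a phosphatase that switches off MAP kinases, at 53.8, 41.0 and 35.2 CPM at 0 and 20.6, 28.4 and 22.3 CPM at 20. Its log2 change was −1.13 (SE 0.3) without the library, and the groups did not overlap with it either. Other entries were JUN at −0.45 (SE 0.15), the circadian repressor gene NFIL3 at −0.57 (SE 0.19) and the Krueppel-like factor gene KLF6 at −0.41 (SE 0.14). In replicate 2, which the ranking did not ask, NFIL3 was at 9.83 CPM at 0 and 9.98 CPM at 20. RGL3 entered with higher values at 20, at a log2 change of 0.64 (SE 0.21), but in replicate 2 it was lower, at 13.8 and 11.1 CPM. LRRC75B, at 0.91 (SE 0.28), and MEG9, at 1.07 (SE 0.36), also entered with higher values. LRRC75B came directly after DDIT4 and ahead of ADM. Both reach a mean of 5 CPM only with the left-out library counted.

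The single gene called without that library was EIF3CL, near-identical to the translation initiation factor gene EIF3C, at −3.95 (SE 0.64, adjusted p = 0.0481). It measured 0.207, 0.457 and 25.7 CPM at 0 and 0.0917, 0.27 and 1.26 CPM at 20, so that 1 library of replicate 3 carried the value, and reads of a near-identical pair cannot be assigned with certainty. Of the 287 genes that were lower at an unadjusted p below 0.05 with all libraries, 190 had their highest value in the second DMSO_T0 library and 70 were antisense genes. Over all tested genes, 2493 of 14186 were highest there and 550 were antisense. With no filter on low counts, 353 genes were called, 348 of them lower, and 340 of the 348 were highest in that library. The same setting without the library called 6.

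**Figure D3:**
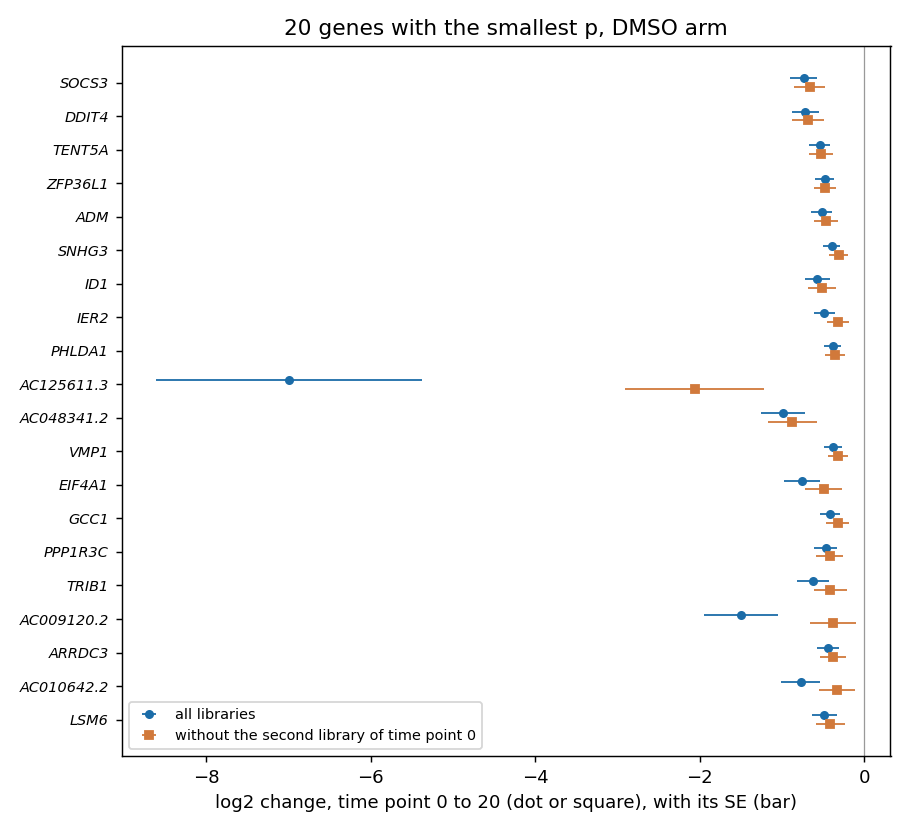
Log2 change from 0 to 20 (horizontal axis) with its SE for the 20 genes with the smallest p, from all libraries (blue dots) and without the second DMSO_T0 library (orange squares). SOCS3, DDIT4 and ZFP36L1 differ little between the fits, at −0.74, −0.72 and −0.48 against −0.66, −0.68 and −0.47, while AC125611.3 moves from −6.99 to −2.06 and AC009120.2 from −1.50 to −0.39.

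Genes picked in other libraries gave a view of the first interval that does not depend on its own p-values. In the etoposide arm 143 genes fell from time point 0 to 40 (1.01% of tested genes), and no DMSO library entered that contrast, although the fit shares its estimate of spread over all libraries. The number that fell was 29 without the replicate block, 58 without replicate 1, 56 without replicate 3 and 271 with only the groups compared. In the first DMSO interval 126 of these 143 had a negative log2 change, beside 7100 of all 14186 genes. Their median was −0.22 (quartiles −0.38 and −0.12), and it was −0.24, −0.33 and −0.12 within replicates 1, 2 and 3. Of the 143, 77 were lower in all 3 numbers and 48 were lower at an unadjusted p below 0.05, beside 1774 and 287 of all 14186 genes. Without the second DMSO_T0 library the median was −0.19 with 126 negative. In the second DMSO interval the same genes had a median of −0.74 (quartiles −1.33 and −0.40), and within the replicates the medians were −0.76, −0.83 and −0.65. Of the 143, 141 were negative there and 75 fell, beside 7162 and 110 of all 14186 genes. The log2 change was more negative in the second interval than in the first for 124 of the 143, beside 7205 of all genes (50.8%). Both intervals share the DMSO_T20 libraries, which enter them with opposite sign.

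A test of the first interval minus the second, gene by gene, asked whether the pace of loss differed. It called 11 genes (0.0775%), and for all 11 the second interval had the more negative change. At an unadjusted p below 0.05 there were 464 genes (3.27%). ADM differed by 1.72 (SE 0.23, adjusted p = 0.00208), with 69.5% of the mean level of time point 0 present at 20 and 14.7% at 40. PLK2, a Polo-like kinase induced by p53 and serum, differed by 1.35 (SE 0.18, adjusted p = 0.00208). It measured 895, 766 and 1190 CPM at 0 and 732, 610 and 1150 CPM at 20, then 236, 190 and 423 CPM at 40, and its first-interval change of −0.22 (SE 0.11) was not called. SPRY2, an inhibitor of ERK signalling, went from 174, 172 and 98.9 CPM to 138, 164 and 102 CPM and then to 61.2, 65.0 and 40.6 CPM, a difference of 1.16 (SE 0.17, adjusted p = 0.00439). Replicates 2 and 3 of SPRY2 were thus close to their starting level at 20.

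A first interval with no common direction over the replicates was seen in 5 of the 11, SPRY2 among them. NUAK2, an AMPK-related kinase, measured 4.56, 7.89 and 4.91 CPM at 0, 7.15, 6.02 and 7.25 CPM at 20 and 1.34, 1.58 and 1.27 CPM at 40, a difference of 2.56 (SE 0.44, adjusted p = 0.0229). It was higher at 20 by value in replicates 1 and 3 and lower in replicate 2. NFKBIZ, a nuclear regulator of NF-kB, measured 28.6, 26.5 and 15.6 CPM, then 28.6, 22.0 and 19.4 CPM, then 8.43, 10.5 and 5.27 CPM, a difference of 1.59 (SE 0.29, adjusted p = 0.0296). CSRNP1, a nuclear protein induced by AXIN1 and cytokines, measured 39.1, 34.0 and 28.2 CPM, then 37.7, 38.5 and 28.8 CPM, then 15.5, 13.1 and 11.2 CPM, a difference of 1.45 (SE 0.24, adjusted p = 0.0143). ZNF574, a zinc finger gene, measured 20.5, 19.4 and 23.2 CPM, then 21.5, 25.6 and 21.4 CPM, then 9.87, 9.94 and 10.5 CPM, a difference of 1.29 (SE 0.24, adjusted p = 0.0411). NUAK2, NFKBIZ, CSRNP1 and ZNF574 had first-interval log2 changes of 0.26 (SE 0.24), 0.02 (SE 0.16), 0.05 (SE 0.14) and 0.12 (SE 0.14), and the sign depends on the library or replicate left out for NFKBIZ, CSRNP1 and ZNF574. NUAK2 was at 0.48 (SE 0.27) without the second DMSO_T0 library.

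The others combined a first-interval drop by value with a larger loss afterwards. SOCS3 differed by 1.67 (SE 0.31, adjusted p = 0.0388), MYC by 1.35 (SE 0.22, adjusted p = 0.0143), IER2 by 1.25 (SE 0.22, adjusted p = 0.0273) and GADD45B, a stress sensor of the GADD45 family, by 1.07 (SE 0.2, adjusted p = 0.043). GADD45B measured 69.6, 68.5 and 77.7 CPM at 0, 47.9, 52.0 and 74.0 CPM at 20 and 17.8, 18.5 and 29.7 CPM at 40. The size of all 11 differences stayed positive in every alternative run, but their calls did not hold in all of them. None of the 11 was called without the third DMSO_T20 library, where the differences were 0.94 to 2.17 and the smallest adjusted p was 0.101, nor without replicate 3 in every group, where they were 0.99 to 2.27. Without replicate 1 in every group 3 were called and without replicate 2 there were 6. Without the replicate block none was called either (1.09 to 2.51), leaving out any other single library of the DMSO arm left 3 to 9 called, limma-voom called 5, and with scaling to housekeeping and ribosomal protein genes 1 remained called. Of the 11, ADM, PLK2, SPRY2, MYC and GADD45B were also called by the same test in the etoposide arm, which called 6 genes (0.0423%) and shares no library with the DMSO arm. The etoposide arm had 0 calls in this test without the replicate block, with housekeeping and ribosomal scaling, without replicate 1 and without replicate 3, and 2 when the fit was not robust. No gene had a more negative change in the first DMSO interval than in the second at an adjusted p below 0.05, and 175 genes did at an unadjusted p below 0.05 (1.23%).

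**Figure D4:**
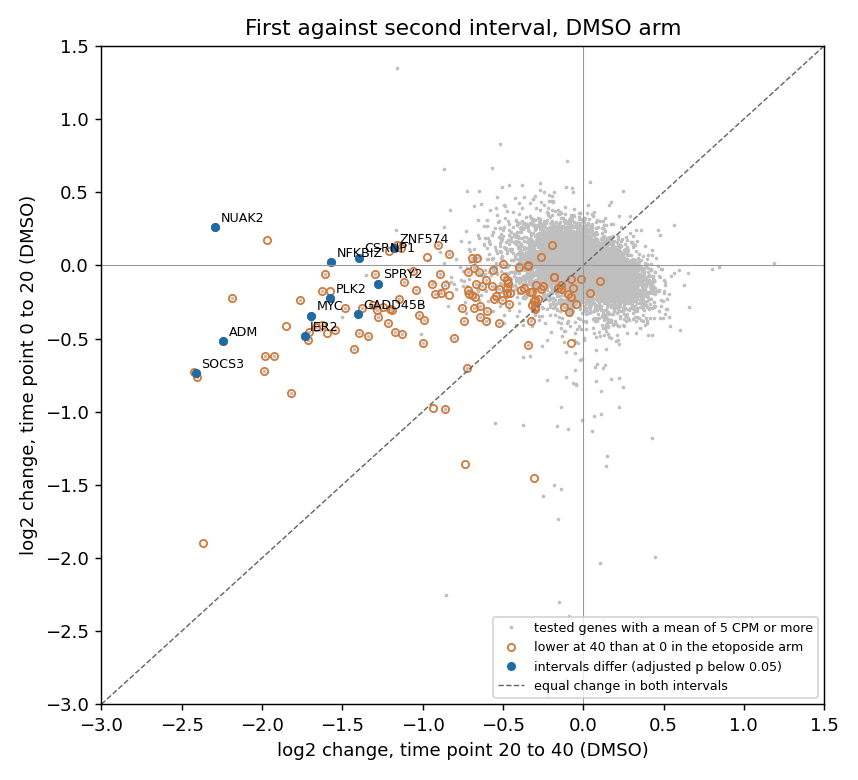
Log2 change from 20 to 40 (horizontal axis) against that from 0 to 20 (vertical axis) in the DMSO arm for the 10860 genes with a mean of 5 CPM or more (grey), the 143 genes that fell by time point 40 in the etoposide arm (orange circles) and the 11 genes whose intervals differ (blue), with equal change as a dashed line. All 11 lie above the dashed line, 4 of them at or above 0 on the vertical axis. Outside the axes lie 26 grey points and the orange circles of SNORA73B and SNORA33.

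The 20 genes were also measured in the first interval of the etoposide arm, from ETOP_T0 to ETOP_T20, which shares no library with the DMSO arm. There 18 of the 20 were lower by value, beside 7051 of all 14186 genes. The 18 include AC125611.3 and AC009120.2, which reach a mean of 5 CPM only with the second DMSO_T0 library counted. AC125611.3 was at 0.0916 to 0.424 CPM in ETOP_T0 and ETOP_T20, near or under the floor of 3 counts. DDIT4 was at −0.70 (SE 0.16) against −0.72 in the DMSO arm, SNHG3 at −0.39 (SE 0.1) against −0.40, VMP1 at −0.40 (SE 0.11) against −0.38, and ARRDC3 at −0.45 (SE 0.14) against −0.44. ID1 was at −0.20 (SE 0.15) against −0.57, and LSM6 was higher by value at 0.25 (SE 0.15) against −0.49. AC010642.2 was at 0.08 (SE 0.25). The difference between the arms was tested for every gene and 0 were called by edgeR (335 at an unadjusted p below 0.05, 2.36%). LSM6 had the smallest p of that test among the 20, at a difference of 0.74. The first interval of the etoposide arm also had 0 calls, with 387 genes at an unadjusted p below 0.05 (2.73%). DESeq2 called 1 gene there, EIF4A1, whose counts had a log2 change of −1.16 (SE 0.21) by edgeR.

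The sequences of the lower RNAs were compared with those of all tested genes, in the annotated 3' UTR of the longest coding transcript (GENCODE release 29). The motif TATTTAT, a core of AU-rich elements read on the transcript strand, was found in 5 of the 15 coding genes among the 20 (33.3%), beside 31.9% of all 12178 coding genes with a 3' UTR, which is near the background. The shorter ATTTA, contained in TATTTAT, was found in 86.7% against 68.1%, and the longer TTATTTATT in 13.3% against 8.16%. With the longest transcript per gene, ATTTA was found in 86.7% against 74.5% and TTATTTATT in 13.3% against 9.69%. The 143 genes chosen in the etoposide arm, of which 124 had a 3' UTR, held TATTTAT in 49.2% and TTATTTATT in 18.5%, and the 11 genes whose intervals differ held TATTTAT in 45.5%. Within the first 500 bases of the 3' UTR, in genes with at least that length, the share was 17.5% for the 143, 12.5% for the 11 (1 of 8), 14.3% for the 20 and 13.2% for all genes. Sites of at most 30 bases are shown for genes picked among those that hold the motif. SOCS3, TENT5A, ZFP36L1 and PHLDA1 had a low p at 20. PLK2, SPRY2, NUAK2 and CSRNP1 had a small first interval and are among the 11 whose intervals differ, as is SOCS3. Capitals mark the motif, and all are written 5′ to 3′ on the transcript strand.
SOCS3, chr17:78356831-78356860, minus strand: aactttgcacaTATTTATatttatattcag
TENT5A, chr6:81747015-81747044, minus strand: attttcttaaaTATTTATattcttttcttg
ZFP36L1, chr14:68788076-68788105, minus strand: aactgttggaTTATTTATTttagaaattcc
PHLDA1, chr12:76029786-76029815, minus strand: tgatttatgaTTATTTATTagttttttttt
PLK2, chr5:58454065-58454094, minus strand: aataaactttTTATTTATTacagcccaaag
SPRY2, chr13:80336121-80336150, minus strand: agtgtaaagaaTATTTATttgaagttttat
NUAK2, chr1:205302894-205302923, minus strand: atttttatttTTATTTATTtatttattttt
CSRNP1, chr3:39142884-39142913, minus strand: ttctctggatTTATTTATTtgttttaactt
Positions are in GRCh38. Only genes that hold the motif could be shown, so its presence in every stretch was fixed by that choice and compares no sets. Of the 11 genes whose intervals differ, ADM, MYC, IER2, GADD45B, NFKBIZ and ZNF574 held no TATTTAT in the annotated 3' UTR. That of GADD45B had only 23 bases and that of ZNF574 only 113 bases in the chosen transcript, which leaves little room for a match. A match is a description of letters and not of a site in use. DDIT4, ADM, ID1 and IER2, all among the 20, held no TATTTAT in the annotated 3' UTR.

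Exon number and gene span were compared with the background as well. The 20 genes had a median of 3 exons in the chosen transcript and a gene span of 8085 bases, beside 9 exons and 34128 bases over all tested genes. The 143 genes chosen in the etoposide arm also had a median of 3 exons, with a span of 6660 bases. The median 3' UTR was 1485 bases in the 20 and 1019.5 bases over all coding genes with one. With the longest transcript per gene the medians were 1485 and 1471 bases, so that difference depends on the choice of transcript. In the RefSeq promoter windows (250 bases before to 50 after the gene start, GRCh38.p14), the letters TATAAA on either strand were found in 3 of the 13 genes of the 20 that had a window (23.1%), in 18.4% of the 98 windows of the etoposide-chosen genes, and in 5.22% of the 9969 windows of all tested genes. They were found in 4 of 10 windows of the genes whose intervals differ. The stretches around the motif are shown for ADM and ID1, which stand among the 20, and for GADD45B and NFKBIZ, whose intervals differ, since the motif lies a similar distance before the start in all 4. Capitals mark TATAAA on the gene's strand.
ADM, chr11:10305019-10305078, plus strand: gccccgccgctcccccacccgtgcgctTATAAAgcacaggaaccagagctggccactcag
ID1, chr20:31605231-31605290, plus strand: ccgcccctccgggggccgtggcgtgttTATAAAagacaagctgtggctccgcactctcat
GADD45B, chr19:2476069-2476128, plus strand: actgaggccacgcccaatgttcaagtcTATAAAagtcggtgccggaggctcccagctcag
NFKBIZ, chr3:101827934-101827993, plus strand: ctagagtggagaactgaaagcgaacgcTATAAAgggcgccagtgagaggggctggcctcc
The motif began 27, 31, 31 and 29 bases before the RefSeq gene start of ADM, ID1, GADD45B and NFKBIZ. The third match among the 20, in TENT5A, lay 238 bases before the start.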

How the data were processed

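The series holds 18 stranded mRNA libraries, and 6 of them form the comparison. The deposited files hold the authors' raw counts of reads per gene for 58051 identifiers. The authors' tools, per the submitters' processing notes, were bcl2fastq, HISAT2 and featureCounts on GRCh38, with versions, annotation, strand setting and handling of multiply mapped reads not given in the sources used here. Of the identifiers, 57447 matched GENCODE release 29, which gave types, positions and 3' UTRs.

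Counts were tested with edgeR 4.0.16 (R 4.3.3, robust quasi-likelihood test, TMM factors, default filter, 14186 genes) in 1 fit over all 18 libraries, with group and replicate number as terms. Benjamini-Hochberg adjustment ran across all of them, with a threshold of 0.05, and each adjusted p comes from edgeR where no other tool stands beside it. CPM values are counts scaled to a total of 1000000 per library with the TMM factors, except for the marker sums, which use plain totals. The labels number the replicates and call them independent. Same-numbered libraries of DMSO_T0 and DMSO_T20 deviated together from their group means (r of 0.599 to 0.88 over genes in the 3 pairs, 0.359 to 0.911 in all 45 pairs), against −0.785 to 0.63 for 90 pairs of different number, so the numbers were used as pairs.

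Members and lists were chosen with earlier results of these data known. Since fewer than 10 genes were called, the text names the 20 smallest p among genes with a mean of 5 CPM or more and the same direction in all 3 numbers, up to 3 members of each list, the genes called in the tests of a difference, and the check genes FOS, JUN, MYC, IER2, SOCS3, ADM, CDKN1A, ERCC3, GAPDH and BEST1. Any other gene named was chosen after its values were seen. Alternatives were DESeq2 1.42.0, limma-voom (limma 3.58.1), other scalings and filters, fits without the block, and leaving out libraries. The genes called in the etoposide arm, the fits without single DMSO_T40 libraries and the fits that combine another tool or filter with leaving out the second DMSO_T0 library were added after seeing the data. The fits were tested on simulated data. These held no library that stood apart like the second of DMSO_T0, so that test does not cover its effect.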

Additional observations from a re-analysis of the deposited data

Results flagged for a closer look

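The 11 genes whose change from 0 to 20 differed from that from 20 to 40 in the DMSO arm are set out because the difference itself passed the test (edgeR, Benjamini-Hochberg over 14186 genes). On the log2 scale, first minus second interval, it was 1.72 for ADM, 1.35 for PLK2, 1.16 for SPRY2, 1.35 for MYC, 1.45 for CSRNP1 and 2.56 for NUAK2. It was 1.25 for IER2, 1.59 for NFKBIZ, 1.67 for SOCS3, 1.29 for ZNF574 and 1.07 for GADD45B. Of these, ADM, PLK2, SPRY2, MYC and GADD45B also passed the same test in the etoposide arm, which shares no library with it, at 1.24, 1.26, 0.96, 1.30 and 1.33 (6 genes called there, 0.0423%). The etoposide arm had 0 calls without the replicate block, with housekeeping and ribosomal scaling, without replicate 1 and without replicate 3. In the DMSO arm none of the 11 was called without replicate 3, where the differences were 0.99 to 2.27, or without the replicate block, at 1.09 to 2.51, and 3 were called without replicate 1.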

How the results depend on the processing

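Among the alternatives that kept all libraries, the first interval had 0 calls in all but DESeq2 (7) and the fit with no filter (353). Calls of the first minus the second interval moved from 11 to 0 with no replicate block, 23 with DESeq2, 5 with limma-voom, 1 with housekeeping and ribosomal scaling, 102 with no filter and 3 with only the groups compared. Calls from 20 to 40 moved from 110 to 31 with no replicate block and 49 with only the groups compared. The first etoposide interval had 1 call with DESeq2, 7 with no filter and 3 with only its groups, and the difference between arms had 74 with no filter. Leaving out 1 library or replicate at a time gave 0 to 5 calls in the first interval (6 also without the filter and the second DMSO_T0 library) and 0 to 13 for the difference of intervals. From 20 to 40 there were 51 to 80 calls without a whole replicate and 64 to 115 without a single library of the DMSO arm. The median of all genes was −0.025 with housekeeping scaling and −0.00818 to 0.0131 on leaving out libraries. List medians on leaving out libraries ranged from −0.209 to 0.0588 for AU-rich cytokines, −0.146 to 0.0729 for retinal pigment epithelium, −0.0717 to 0.0644 for fibroblast markers, −0.0599 to 0.0525 for N6-methyladenosine genes, −0.118 to 0.0129 for decay genes, −0.205 to −0.000434 for proteins that bind AU-rich elements and −0.0861 to 0.0377 for topoisomerase genes. Leaving out the second DMSO_T0 library with no replicate block gave −0.216 for proteins that bind AU-rich elements, 0.0479 for NF-kB genes, −0.164 for short-lived regulators and −0.0899 for fibroblast markers. Signs turned on leaving out libraries for FOS (−1.2 to 0.0616), SPRY2 (−0.207 to 0.007), ZNF574 (−0.0231 to 0.238), CSRNP1 (−0.00849 to 0.13), GAPDH (−0.0352 to 0.167) and NFKBIZ (−0.12 to 0.228), and CDKN1A was at 0.0247 in the fit without both the library and the block. NFKBIZ was also at −0.0134 with no replicate block, −0.0177 with limma-voom and −0.00981 with only the groups compared and no block. With the longest transcript per gene, TATTTAT was in 36.7% and ATTTA in 74.5% of all coding genes, and their median 3' UTR was 1471 bases. The causes were not tested, other than that fits on fewer libraries have fewer degrees of freedom.

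With 3 libraries a group and a median SE of 0.13 at 5 CPM or more, the absence of calls does not show that levels were equal at 0 and 20. Depth limits RNAs near 0.264 to 0.343 CPM, CXCL2 among them.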
